A study of Mus musculus with 12 samples.

Results

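ISRIB was compared with vehicle in unpolarized (M0) bone marrow-derived macrophages of the mouse, cultured cells that differentiate from marrow precursors under the growth factor M-CSF. The members are 6 of the 12 RNA sequencing libraries of the study, chosen by title: 3 titled as ISRIB treated M0 and 3 as vehicle treated M0. All cells had been cultured for 6 days with M-CSF at 10 ng/ml. ISRIB was given at 50 nM and the vehicle was DMSO, with 1 h of pre-treatment in both groups. The other 6 libraries are M1-like cells, which received LPS (10 ng/ml) and IFN-γ (25 ng/ml) for 16 h, with the vehicle or ISRIB still present. The labels call the 3 libraries of a group biological replicates and do not say whether they came from separate animals, so p-values measure the spread between these samples. Strain, sex and age of the mice, and what M0 cells received while the M1-like cells were stimulated, are not given in the sources used here.

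The integrated stress response starts when a stress-sensing kinase phosphorylates the translation initiation factor eIF2. Phosphorylated eIF2 blocks its own exchange factor eIF2B, so that most protein synthesis slows while a few mRNAs, Atf4 among them, are translated more. ATF4 then induces genes of amino acid supply, tRNA charging and stress recovery. ISRIB is a small molecule that binds eIF2B and keeps it active when eIF2 is phosphorylated. It acts on translation, so mRNA levels show only what follows from it.

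In M0 cells no gene passed the test for a difference between ISRIB and vehicle. Of 2356 genes tested, 0 (0%) had an adjusted p under 0.05 by quasi-likelihood in edgeR (Benjamini-Hochberg). An unadjusted p under 0.05 was found for 143 (6.07%), 87 higher (3.69%) and 56 lower (2.38%) under ISRIB. DESeq2's Wald test called 3 genes, limma-voom 1 and limma on the deposited log2 values 0. The edgeR test called 10 with no filter on low counts. With the replicate number as a block it called 0 in all 12 libraries but more than these 10 in the 6 M0 libraries alone, as given near the end. The 3 genes with the lowest p in the edgeR test were Nisch, Ccnl2 and Gbp7, all with few counts and all higher under ISRIB, and the lowest adjusted p was 0.0727, for Nisch. Genes were called well-counted where the 6 M0 libraries averaged 50 counts or more, which held for 861. Among these the median absolute log2 fold change was 0.14. For 783 of them (90.9%) the 95% interval of the difference lay inside 2-fold in either direction. Of the 837 well-counted genes matched to the annotation, 743 (88.8%) had an exon overlapping an exon of an opposite-strand gene. For those the bound holds for counts assigned to the symbol, whichever gene the reads came from.

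Facts of the libraries bear on every value. M0 libraries held 457892 to 514037 counts, and each count stood for 1.79 to 2.08 CPM (levels rescaled for library size by TMM). Symbols with a count numbered 4791 to 5470 per library, and 22.7% to 24.1% of counts fell on the top 10 genes. The libraries are strand-specific per the labels, and the counter's strand setting is not given in the sources used here. Symbols with an exon overlapping an exon of an opposite-strand gene were 24.1% of those matched to the annotation and held 92.0% to 93.1% of M0 counts, whereas the cytoskeletal actin gene Actb held 24 to 77 counts and the glycolysis gene Gapdh 2 to 10. For an overlapping gene it therefore cannot be told from the counts which of both genes the reads came from. With genes as abundant as these near 0, a count of 0 or a low count in this table does not show that a gene was little expressed. Among values from 1 to 10, 64.9% were even, with 6145 values of 2 against 3563 of 1. Counting intervals below treat each count as an independent read.

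The label of M0 macrophages was set against markers. Of 32 macrophage genes looked up, 31 were in the table, each had a count in some M0 library, and 23 were tested. Adgre1, which encodes F4/80, held 20, 9 and 6 counts in vehicle and 8, 4 and 26 under ISRIB. Csf1r, the M-CSF receptor, held 71, 68 and 35 counts and 36, 50 and 43. The macrophage list had exon overlap on the opposite strand with 1 other symbol in the table, Hmgxb3. It held 1113, 1225 and 1070 counts in vehicle and 935, 1097 and 999 under ISRIB. Nos2, Cxcl9 and Cxcl10, which mark M1 cells, were at 0 in all 6 libraries, while the 6 M1-like libraries held 10 to 38, 78 to 112 and 14 to 74 counts of them. Il6 and Il12b were at 0 too, but each had a count in 1 M1-like library only, so they check little. A count of 0 allows up to 3 counts, or 0.000584% to 0.000655% of a library, for counting error only. Summed over each list, neutrophil markers held 0 to 4 counts per library, lymphocyte markers 0 to 4, stromal and endothelial markers 0 to 13, and erythroid and mast cell markers 2 to 16. Dendritic cell markers held 27, 43 and 29 counts in vehicle and 22, 48 and 67 under ISRIB, nearly all on Xcr1 and Clec9a. Both were tested, with log2 fold changes of 0.42 and 0.69 and 95% intervals of -0.27 to 1.11 and -0.75 to 2.13, while the defining dendritic cell genes Flt3 and Zbtb46 were at 0 in all 6 libraries. These low sums do not show that other cells were absent, and the part of other cell types in any result was not tested. In bulk RNA, fewer cells of a type and less RNA per cell cannot be told apart.

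Genes induced through ATF4 are the nearest mRNA readout of what ISRIB acts on, and many carry a composite C/EBP-ATF site in their promoters. The site was searched as TGATGNAA on both strands (TTNCATCA on the other) in RefSeq promoters of build GRCm38.p6, from 250 bases before each gene's start to 50 after. It was present in 11 of 34 matched integrated stress response genes (32.4%), against 1219 of 27025 genes in the table (4.51%). A match describes letters in this window and is not a measured binding site. To show what these promoters share, windows of 40 bases follow from Atf3, a stress-induced repressor (chr1:191183420-191183459, minus strand), Chac1, which degrades glutathione (chr2:119351033-119351072, plus strand), Slc7a11, the cystine importer (chr3:50443656-50443695, minus strand), and Pycr1, an enzyme of proline synthesis (chr11:120643828-120643867, minus strand), each 5′ to 3′ on the gene's strand with the match in capitals.
Atf3: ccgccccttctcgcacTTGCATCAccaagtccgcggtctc
Chac1: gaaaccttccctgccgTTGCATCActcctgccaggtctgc
Slc7a11: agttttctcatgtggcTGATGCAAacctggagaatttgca
Pycr1: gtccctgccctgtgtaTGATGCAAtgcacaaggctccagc
Of these, only Atf3 held enough counts to be tested. Chac1 and Slc7a11 were at 0 in all 6 M0 libraries, and Pycr1 held 9, 8 and 3 counts in vehicle and 8, 13 and 4 under ISRIB. Among the 675 well-counted genes with a promoter in the table, the 21 with the match had a median log2 fold change of 0.05 and the 654 without it one of -0.02. Their share of 3.11% lay below the 4.51% of all genes, and none of the 21 was in the list of stress response genes. Whether these 21 genes are induced through ATF4 was not tested.

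The transcription factors of the response showed no difference that the counts could resolve. Ddit3, which encodes the stress factor CHOP, held 59, 48 and 38 counts in vehicle and 49, 52 and 36 under ISRIB, so the groups overlapped. Its log2 fold change was -0.05, with a 95% interval of -0.72 to 0.62, and it shares exonic bases with the methionyl-tRNA synthetase gene Mars on the opposite strand. Atf5, a close relative of Atf4, held 176, 121 and 196 counts against 165, 146 and 148. It was the 1 well-counted member, and its log2 fold change of -0.08 (95% interval -0.52 to 0.35) spans from 0.699-fold to 1.27-fold. Atf5 shares 82 exonic bases with Il4i1 and 82 with Nup62 on the opposite strand. Atf3 held 11, 11 and 1 counts in vehicle and 8, 13 and 8 under ISRIB, and its interval ran from -0.97 to 1.72. The partner factors Cebpb and Cebpg had intervals of -1.84 to 1.00 and -1.33 to 1.36, and the groups overlapped for both. Cebpb shares 312 exonic bases with Tmem189 on the opposite strand, and Cebpg 4 with Gm45095. Atf4 itself was below the filter on low counts, with 5, 4 and 0 counts in vehicle and 2, 1 and 0 under ISRIB, a ratio of 0.339 with a counting interval of 0.0591 to 1.36.

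Effectors of the response held few counts in this table. Of the 39 genes looked up, 22 had 0 counts in all 6 M0 libraries, among them the kinase inhibitor Trib3 and the asparagine synthetase gene Asns, and 8 were tested. Slc3a2, the heavy chain shared by amino acid transporters, held 32, 4 and 8 counts in vehicle and 5, 20 and 13 under ISRIB, with no separation of the groups. Psph, of serine synthesis, held 12, 14 and 11 against 16, 20 and 8. It shares 452 exonic bases with Cct6a on the opposite strand. Xpot, which exports tRNA from the nucleus, held 6, 3 and 0 against 6, 16 and 4, giving a log2 fold change of 1.51, an interval of -0.12 to 3.15 and an unadjusted p of 0.0684 in the edgeR test. Ppp1r15a, which encodes the phosphatase subunit GADD34 that reverses eIF2 phosphorylation, held 0, 6 and 4 counts in vehicle and 0 in each ISRIB library, and was below the filter. Its ratio of 0 has a counting interval that reaches 0.454. Vegfa, a growth factor of blood vessels, was below the filter too, with 0 counts in each vehicle library and 2, 8 and 1 under ISRIB. The counting interval of its ratio starts at 2.55. The intervals of Ppp1r15a and Vegfa hold counting error only and leave out the spread between libraries. Most Vegfa counts lay in ISRIB replicate 2, and vehicle replicate 1 held no Ppp1r15a counts. In the 8 tested genes 0 were called, 0 had an unadjusted p under 0.05, 4 estimates lay above 0 and 4 below, and the median log2 fold change was -0.02, against -0.004 over the 2316 tested genes with a count in M0. With 1 library left out the median ran from -0.16 to 0.28. All 39 genes together held 363, 252 and 309 counts in vehicle and 292, 332 and 280 under ISRIB, with overlap of the groups. The ratio was 0.996 (0.907 to 1.09, counting error only). Most of these counts lay on Atf5 and Ddit3, so the sum says little about the other members.

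The machinery that ISRIB targets was sparsely counted too. Of 18 genes of eIF2, eIF2B, their kinases and phosphatases, and related factors, 4 were tested, 3 with an estimate above 0 and 1 below. The highest estimates were those of the related factors Eif5 and Eif2a. For the 4 together the median log2 fold change was 0.76 (0.59 to 1.03 with 1 library left out). It changed sign, to -0.23, with counts halved and rounded up. An unadjusted p under 0.05 in the edgeR test was found for 1 of the 4, against 6.07% of all tested genes, and 0 were called. Eif2ak2, the double-stranded RNA kinase PKR, held 13, 17 and 23 counts in vehicle and 26, 27 and 19 under ISRIB, giving a log2 fold change of 0.46 (95% interval -0.37 to 1.29), with overlap of the groups. Eif2a, an initiation factor that is no subunit of eIF2, held 5, 12 and 4 counts against 15, 20 and 8, with 1.06 and an interval of -0.82 to 2.95. Ppp1r15b, a phosphatase subunit that removes the eIF2 phosphate at rest, held 2, 14 and 4 against 6, 4 and 0, with -0.92 and -2.50 to 0.66. The groups overlapped for both. On the opposite strand, Eif2ak2 shares 174 exonic bases with Gm26637, Eif2a 72 with Serp1 and Ppp1r15b 640 with Gm26616. Eif5, which makes eIF2 hydrolyse its GTP, held 0 counts in each vehicle library and 2, 12 and 8 under ISRIB. The ISRIB mean was 2.41-fold a floor of 3 counts per library, with no error on the mean, and ISRIB replicate 1 lay under that floor. The adjusted p was 0.294 in the edgeR test. The eIF2B subunit genes Eif2b1, Eif2b2 and Eif2b4 held at most 8 counts in any library. All 18 genes together held 46, 67 and 47 counts in vehicle and 58, 85 and 61 under ISRIB, with overlap of the groups and a ratio of 1.30 (1.05 to 1.61, counting error only). Of 20 aminoacyl-tRNA synthetases 3 were tested. Mars held 61, 54 and 24 counts against 20, 38 and 47, Qars 48, 52 and 56 against 30, 46 and 57, and Yars 7, 13 and 14 against 8, 21 and 10. The groups overlapped in all 3, with log2 fold changes of -0.38, -0.22 and 0.19, and 0 had an unadjusted p under 0.05. All 20 together held 126, 144 and 111 counts in vehicle and 60, 111 and 136 under ISRIB, again with overlap and a ratio of 0.820 (0.703 to 0.956, counting error only).

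Chaperones of the endoplasmic reticulum, which the related unfolded protein response controls, had estimates on both sides of 0, and 0 were called. Of 24 genes 8 were tested, 7 of them with a count in M0, 3 above 0 and 4 below. Their median log2 fold change was -0.07, and 0.21 with only the 6 M0 libraries. An unadjusted p under 0.05 was found for 2 of the 8, against 6.07% of all tested genes. Canx, the membrane chaperone calnexin, held 12, 8 and 22 counts in vehicle and 33, 32 and 26 under ISRIB, giving a log2 fold change of 1.12, an interval of 0.19 to 2.04 and an adjusted p of 0.595 in the edgeR test. Pdia3, a disulfide isomerase that works with calnexin, held 2, 0 and 4 counts against 14, 12 and 9, with an adjusted p of 0.561. The groups did not overlap for these genes, as was the case for 266 of all 2356 genes tested (11.3%), 131 higher (5.56%) and 135 lower (5.73%). Calr, the soluble relative calreticulin, held 13, 13 and 9 counts in vehicle and 8, 5 and 3 under ISRIB, a log2 fold change of -1.07 with an interval of -2.22 to 0.09. Its groups did not overlap either, with ISRIB lower. The master chaperone Hspa5 held 20, 9 and 7 counts against 4, 20 and 0.

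How large a difference could have gone unseen depended on the count. With a mean of 1000 counts or more, the median interval reached 0.22 on the log2 scale (1.17-fold) to either side, and all 94 such genes were bounded within 2-fold. From 200 to 1000 counts the reach was 1.24-fold and 299 of 304 genes were bounded within 2-fold, and from 50 to 200 counts it was 1.45-fold and 390 of 463 were. Below 50 counts few genes were bounded: 100 of 934 genes with a mean of 10 to 50 counts, and 0 of 561 with a mean below 10, where the reach was 4.04-fold. Among the 861 well-counted genes, which held 92.8% of M0 counts, the interval lay inside 1.5-fold for 453 (52.6%) and inside 1.2-fold for 38 (4.41%). It lay wholly beyond 1.2-fold for 14 genes, beyond 1.5-fold for 1, 4930581F22Rik, and beyond 2-fold for 0. Without any 1 library the number inside 2-fold was 713 to 739. These bounds are for counts assigned to a symbol, and most well-counted symbols overlapped an opposite-strand gene.

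**Figure D1:**
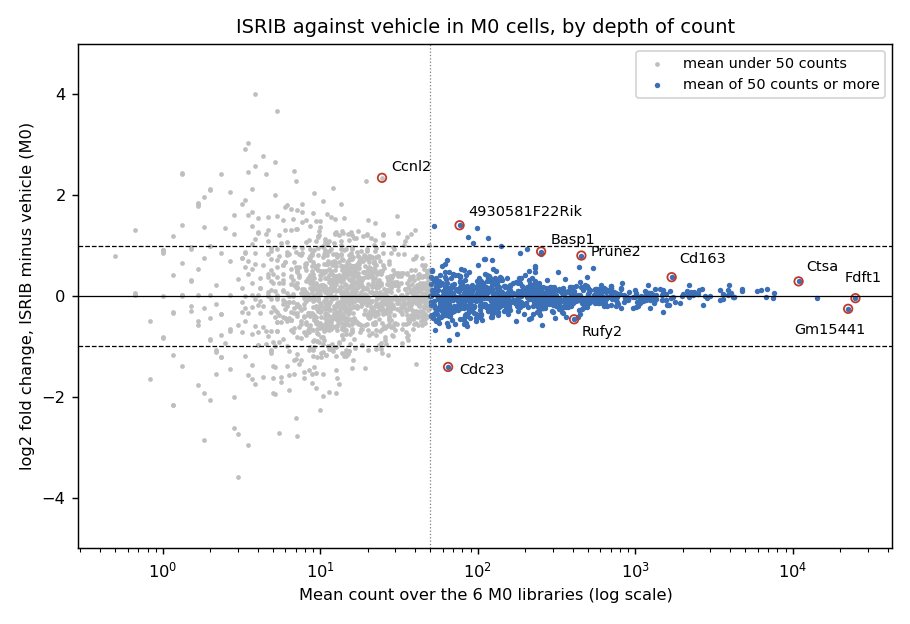
Log2 fold change of ISRIB against vehicle in M0 cells (vertical axis) by mean count over the 6 M0 libraries (horizontal axis, log scale) for 2259 tested genes, with well-counted genes in blue, dashed lines at 2-fold and a dotted line at 50 counts; 97 genes with no count in a group are left out. The spread narrows with count, and 7 well-counted genes lie at or beyond 2-fold.

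Libraries of different treatment differed about as much as libraries of the same treatment. For well-counted genes, the median absolute log2 difference between a pair of vehicle libraries was 0.237, 0.236 and 0.194, and between a pair of ISRIB libraries 0.236, 0.216 and 0.185. The 9 pairs of an ISRIB and a vehicle library gave 0.192 to 0.246, with a median of 0.221. Estimates for these genes were above 0 for 399 and below 0 for 462, and 5th and 95th percentiles were -0.38 and 0.41. Of the 861, 52 (6.04%) had an unadjusted p under 0.05, 31 of them higher (3.6%) and 21 lower (2.44%) under ISRIB. The groups did not overlap for 104 (12.1%), 45 higher (5.23%) and 59 lower (6.85%).

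**Figure D2:**
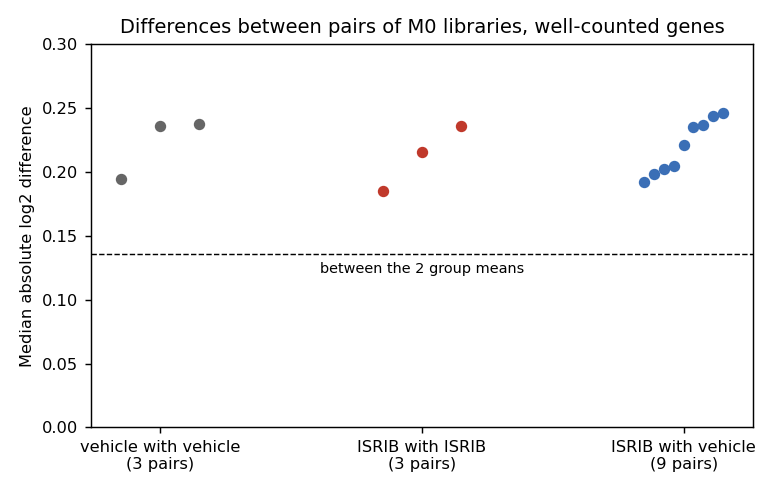
Median absolute log2 difference over 861 well-counted genes for each pair of M0 libraries (points), by kind of pair, with the difference between the 2 group means as a dashed line. Pairs across treatment lie at 0.192 to 0.246 and pairs within a group at 0.185 to 0.237.

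The most heavily counted genes gave the tightest bounds. Counts assigned to Fdft1, squalene synthase of the cholesterol pathway (chr14:63145150-63179578, mm10), were 24534, 26220 and 25905 in vehicle and 21372, 25752 and 26357 under ISRIB, so the groups overlapped. The log2 fold change was -0.04 and its interval of -0.23 to 0.15 spans 0.85-fold to 1.11-fold. Fdft1 shares 774 exonic bases with Ctsb, the lysosomal protease cathepsin B, on the opposite strand. Tmem132a (chr19:10857822-10869940), which shares 1541 exonic bases with the lysosomal histidine and peptide transporter gene Slc15a3, held 15849, 13410 and 14708 counts against 13848, 14141 and 14195, with an interval of -0.21 to 0.14. Snx22, a sorting nexin opposite the cyclophilin B gene Ppib, and Krr1, a factor of ribosome assembly opposite Glipr1, had intervals of -0.14 to 0.24 and -0.23 to 0.15. For 3110062M04Rik the interval was -0.20 to 0.17. The intervals of these 5 genes all lay inside 1.2-fold.

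Counts assigned to Gm15441, the gene with the most counts after Fdft1, stood apart between the groups. It is an antisense transcript (chr3:96555765-96566801, minus strand) that shares 606 exonic bases with Txnip, the thioredoxin-interacting protein that limits glucose uptake. Counts were 24970, 25951 and 23046 in vehicle and 18507, 20942 and 21553 under ISRIB. Every ISRIB library lay below every vehicle library, at 38986 ± 1213 CPM (SD, n = 3) against 46469 ± 218. The log2 fold change was -0.25, with an interval of -0.44 to -0.06, or 0.735-fold to 0.958-fold, and an adjusted p of 0.561 in the edgeR test. Limma-voom gave it an adjusted p of 0.0240, the 1 gene it called. Txnip itself held 12, 6 and 2 counts against 2, 24 and 6. Which strand the reads came from cannot be told from the counts.

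Ctsa and Ptger1 were the remaining genes among the 8 with the most counts. Ctsa, the lysosomal carboxypeptidase cathepsin A (chr2:164832873-164841032), held 13030, 7932 and 8941 counts in vehicle and 15181, 10002 and 10312 under ISRIB. Replicate 1 was the highest library in each group, and the groups overlapped, but at each replicate number the ISRIB library was the higher one. With the replicate number as a block in the 6 M0 libraries Ctsa was called, as given near the end. The log2 fold change was 0.29, with an interval of -0.06 to 0.64 and an unadjusted p of 0.0982 in the edgeR test, and it was 0.01 without ISRIB replicate 1 and 0.53 without vehicle replicate 1. Pltp, a phospholipid transfer protein on the opposite strand that shares 495 exonic bases with Ctsa, held 3214, 3006 and 2831 counts against 2896, 3102 and 2853, with an interval of -0.20 to 0.19. Ptger1, the EP1 receptor for prostaglandin E2, held 6354, 7009 and 6370 counts against 6279, 7431 and 7570. After scaling the groups did not overlap, and the interval of -0.05 to 0.31 included 0.

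**Figure D3:**
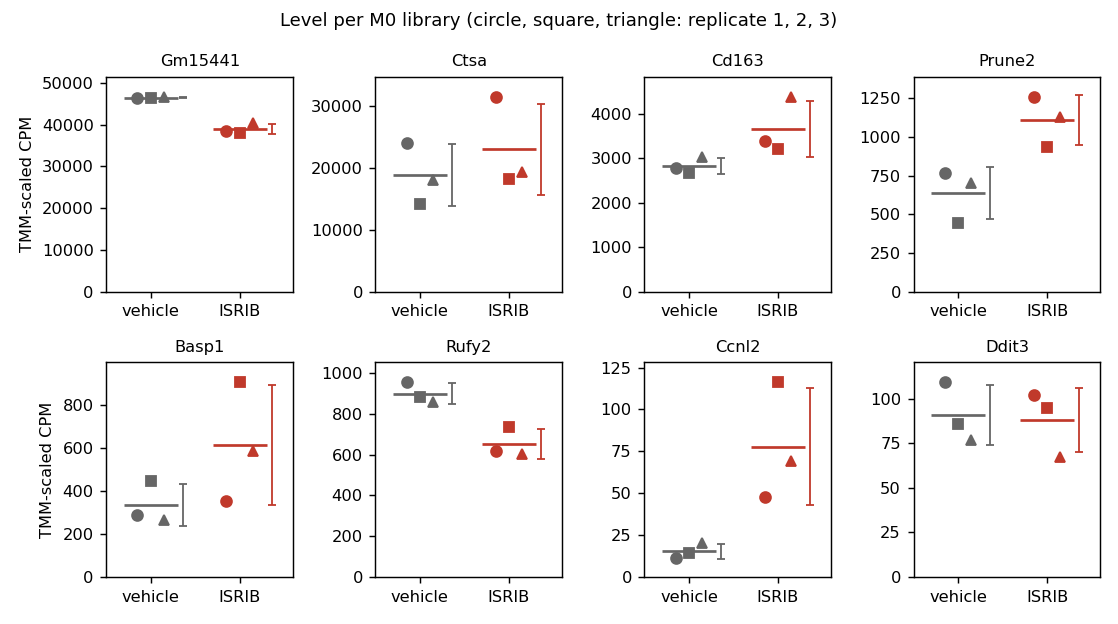
TMM-scaled CPM of 8 genes in each M0 library (circle, square and triangle for replicates 1, 2 and 3), with the group mean as a line and the SD as a bar, on axes that start at 0. The groups are apart for Gm15441, Cd163, Prune2, Rufy2 and Ccnl2 and overlap for Ctsa, Basp1 and Ddit3.

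Well-counted genes with the lowest p and a higher estimate under ISRIB were 6, none of them called, and all had an adjusted p of 0.294 in the edgeR test. With no filter on low counts, edgeR did call 4930581F22Rik, Gabpa, 4930539J05Rik and Basp1 of these, but not Pitpna or 1700034H15Rik. The non-coding gene 4930581F22Rik (chr9:35116728-35130922) held 33, 40 and 53 counts in vehicle and 75, 137 and 122 under ISRIB, with no overlap. Its log2 fold change of 1.40 had an interval of 0.68 to 2.13, and it shares exonic bases with the sialyltransferase gene St3gal4 and the decapping gene Dcps. Gabpa, an ETS-family activator of mitochondrial genes (chr16:84834925-84863779), held 47, 98 and 74 counts against 107, 255 and 120, giving a log2 fold change of 1.14 (95% interval 0.52 to 1.77) with no overlap. Its opposite-strand neighbour Atp5j, of the mitochondrial ATP synthase, held 147, 195 and 151 against 124, 205 and 178. ISRIB replicate 2, at 255 counts, lay well above the other ISRIB libraries.

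ISRIB replicate 2 was the highest library in several of these genes. Basp1, a membrane-bound signalling protein with no opposite-strand overlap (chr15:25363277-25413764), held 156, 249 and 131 counts in vehicle and 169, 499 and 312 under ISRIB, so the groups overlapped. Its log2 fold change was 0.88, with an interval of 0.36 to 1.40, and 0.50 to 1.17 with 1 library left out. Pitpna, a phosphatidylinositol transfer protein, held 14, 36 and 37 counts against 34, 115 and 80. Both passed when ISRIB replicate 1 was left out, with adjusted p-values of 0.0268 and 0.0488 in the edgeR test, and so did Mrpl48, a mitochondrial ribosomal protein with 36, 73 and 57 counts against 53, 248 and 126. In vehicle, replicate 1 was the lowest for Gabpa, Pitpna and Mrpl48. What the replicates share was not tested.

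Antisense transcripts made up the rest of that group. 1700034H15Rik, opposite the zinc exporter gene Slc30a1, held 175, 231 and 155 counts in vehicle and 271, 270 and 282 under ISRIB, giving a log2 fold change of 0.59 (95% interval 0.26 to 0.91). 4930539J05Rik, opposite the ubiquitin-conjugating enzyme gene Ube2d3, held 84, 184 and 158 against 190, 349 and 270, with 0.93 and 0.40 to 1.47. The groups did not overlap for either. Slc30a1 held at most 6 counts in any M0 library and Ube2d3 at most 4. Prune2, named because an alternative called it, encodes a large protein with a BCH domain. It has no opposite-strand overlap (chr19:16956118-17223932) and held 412, 249 and 345 counts against 606, 515 and 604. Its log2 fold change was 0.80 with an interval of 0.32 to 1.28 and an adjusted p of 0.294, and it passed at 0.0254 in the edgeR test when no filter on low counts was used.

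Of the 6 well-counted genes with the lowest p and a lower estimate under ISRIB, Gm15441 among them, 0 were called. Rufy2, an adaptor of endosomal membranes that shares 115 exonic bases with Hnrnph3 on the opposite strand (chr10:62980223-63017210), held 516, 492 and 423 counts in vehicle and 296, 404 and 323 under ISRIB. The groups did not overlap, and the log2 fold change was -0.46, with an interval of -0.73 to -0.19 and an adjusted p of 0.294 in the edgeR test. Rrbp1, which binds ribosomes to the endoplasmic reticulum, held 457, 519 and 525 counts against 295, 414 and 405, and Rasgrp4, a myeloid activator of Ras, 361, 342 and 365 against 218, 287 and 280. Their log2 fold changes were -0.42 and -0.43, and every ISRIB library lay below every vehicle library for both. Zc3h18, of nuclear RNA processing, held 83, 102 and 72 counts against 31, 48 and 60, with -0.86 and an interval of -1.43 to -0.30. Cdc23, a subunit of the anaphase-promoting complex opposite the mitotic kinesin gene Kif20a, held 54, 173 and 59 counts against 39, 17 and 47. Its log2 fold change of -1.41 had an interval of -2.45 to -0.36, among the 3 widest of the well-counted genes, and was -0.71 without vehicle replicate 2, which held the 173 counts. The other two, D630041G03Rik and Osbpl11, had intervals of -1.12 to 1.74 and -0.46 to 1.75.

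**Figure D4:**
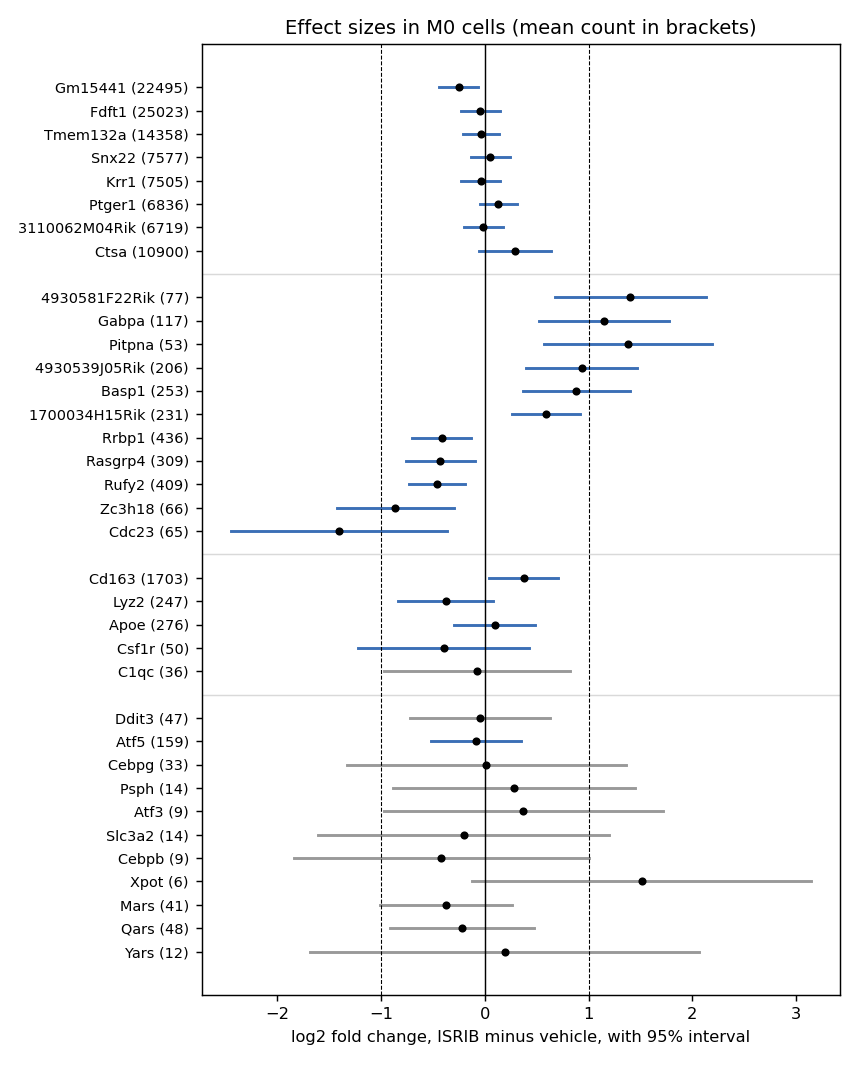
Log2 fold change of ISRIB against vehicle in M0 cells (points) with 95% intervals (lines; blue for well-counted genes, grey for genes below a mean of 50 counts), with mean counts in brackets and dashed lines at 2-fold; from top to bottom, the most counted genes, genes with the lowest p, macrophage genes, and stress response genes and tRNA synthetases. Fdft1 is bounded between -0.23 and 0.15, whereas Xpot runs from -0.12 to 3.15.

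The 3 genes with the lowest p over all tested genes had few counts. Nisch, an integrin-binding scaffold, held 0 counts in each vehicle library and 6, 6 and 15 under ISRIB. Its ISRIB mean was 3.03-fold a floor of 3 counts per library, with no error on the mean. Gbp7, an interferon-induced guanylate-binding protein, held 0 in each vehicle library and 11, 1 and 9 under ISRIB. Its ISRIB mean was 2.44-fold the same floor, and ISRIB replicate 2 lay under it. Ccnl2, a cyclin tied to pre-mRNA splicing, held 6, 8 and 10 counts against 23, 64 and 37, giving a log2 fold change of 2.35 (95% interval 1.27 to 3.42), and the groups did not overlap. Adjusted p-values were 0.0727, 0.110 and 0.110 in the edgeR test. With DESeq2's Wald test they were 0.0251 for Nisch, 0.0251 for Ccnl2 and 0.0347 for Gbp7, the 3 genes it called. With the filter on low counts dropped, edgeR called 10 genes, these 3 among them. The rest were well-counted, and Basp1 had the lowest adjusted p of all 10, at 0.000147 in that edgeR test. Nisch and Gbp7 also passed without ISRIB replicate 2, and Nisch and Ccnl2 without ISRIB replicate 1.

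Macrophage genes lay on both sides of 0. Of the 23 tested, 10 estimates were above 0 and 13 below, the median was -0.20, against -0.004 over all tested genes with a count in M0. The median changed sign with the setting: it was -0.45 to 0.03 with 1 library left out and 0.10 with only the 6 M0 libraries. Of the 23, 1 reached an unadjusted p under 0.05 (6.07% of all tested genes did), with 0 called. That gene was Cd163, the haemoglobin scavenger receptor of resting and anti-inflammatory macrophages (chr6:124304656-124330527), which has no opposite-strand overlap. It held 1501, 1488 and 1496 counts in vehicle and 1632, 1761 and 2342 under ISRIB, and every ISRIB library lay above every vehicle library. The log2 fold change was 0.37, with an interval of 0.04 to 0.71 and an adjusted p of 0.711 in the edgeR test, and 0.24 to 0.48 with 1 library left out. Lyz2, lysozyme, held 316, 334 and 195 counts against 146, 229 and 263, with an interval of -0.84 to 0.08. Apoe, a lipid carrier that macrophages secrete, held 313, 287 and 206 against 222, 333 and 292, with -0.29 to 0.49, and the groups overlapped for both.

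Lysosomal genes were split evenly, with 10 of 19 tested estimates above 0, a median log2 fold change of 0.01 (-0.19 to 0.25 with 1 library left out), 2 genes at an unadjusted p under 0.05, against 6.07% of all tested genes, and 0 called. Npc2, which binds cholesterol in the lysosome, held 16, 44 and 9 counts in vehicle and 38, 54 and 44 under ISRIB, giving a log2 fold change of 1.02 (95% interval 0.23 to 1.80). Ctss, the protease cathepsin S, held 26, 30 and 6 counts against 31, 52 and 32, with 0.93 and 0.06 to 1.80. With 1 library left out the estimates ran from 0.68 to 1.85 and from 0.53 to 1.27, and vehicle replicate 3 was the low library in both. Their adjusted p-values were 0.561 and 0.731 in the edgeR test. Npc1, the membrane partner of Npc2, held 92, 107 and 62 against 82, 61 and 97, with -0.54 to 0.38. In the list of lipid and sterol genes all 4 tested members were well-counted, with estimates from -0.05 to 0.13. Lpcat3, a phospholipid acyltransferase, was bounded between -0.34 and 0.23, and Sqle, squalene epoxidase, between -0.29 and 0.55.

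Most inflammatory and interferon genes held few counts in the M0 libraries. Of 37 M1 genes in the table, 20 were at 0 in all 6 libraries. Ccl3, a chemokine, held 256, 274 and 242 counts in vehicle and 214, 286 and 292 under ISRIB, with an interval of -0.26 to 0.37. Irf5, a transcription factor of inflammatory macrophages, held 533, 474 and 453 against 397, 472 and 439, with -0.38 to 0.11. The groups overlapped for both, and none of the 9 tested M1 genes with M0 counts (0 of 9) reached an unadjusted p under 0.05. Of 42 interferon-stimulated genes 21 were at 0 throughout and 39 never exceeded 10 counts. The whole list held 28, 53 and 19 counts in vehicle and 25, 33 and 54 under ISRIB, with overlap of the groups. The 15 tested members with a count had a median fitted log2 fold change of 1.30, and 0 to 1.75 with 1 library left out. With genes that had a group at 0 set to their value against the floor, or to 0 where both groups lay at or under it, the median was 0. Among the 23 tested members, an unadjusted p under 0.05 was found for 2 higher and 1 lower, and 0 were called. Such a p was reached by 6.07% of all tested genes, and by 9.09% where the mean was below 10 counts. The members that reached it, Gbp7, Herc6 and Bst2, each had a mean below 10 counts and a group at 0. Herc6 held 0 counts in vehicle and 0, 2 and 6 under ISRIB, and Bst2 0, 6 and 0 against 0 throughout. Both had an unadjusted p under 0.05 in the edgeR test, and with group means at or under the floor no fold is given.

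In M1-like cells the same compound was compared with its own vehicle libraries, and 0 of 2356 genes passed (0%), with 134 (5.69%) at an unadjusted p under 0.05. The median absolute log2 fold change over the well-counted genes was 0.15 there and 0.14 in M0. The difference between both effects was tested as an interaction, in which 0 genes passed (0%), while the unadjusted p was under 0.05 for 167 (7.09%) in the edgeR test. For 4930581F22Rik the log2 fold change was 1.40 in M0 and 0.01 in M1, with an adjusted interaction p of 0.505. Basp1 had 0.88 and -0.57, with 0.183, and Gabpa 1.14 and -0.46, with 0.213. Rufy2 had -0.46 and -0.01, with 0.572, and Gm15441 -0.25 and -0.05, with 0.771. No difference between M0 and M1 cells was thus shown for these genes. They were picked by their low p in M0, and the M0 contrast is part of the interaction. Their M0 estimates, and with them the gaps to M1, can be too large from that choice alone.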

How the data were processed

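Per the labels' protocols, libraries were made with a strand-specific TruSeq mRNA kit and read on a NovaSeq. Whole-number counts per gene symbol were deposited by the authors, together with a table of log2 values of the same shape. FastQC, HTSeq, DESeq2 and build mm10 are named in the submitters' processing notes, and versions, roles and the strand setting are not given in the sources used here. Columns were matched to samples by their descriptions, and 0 value columns belonged to no sample. Library totals were 457892 to 514037 counts in M0.

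The analysis of these counts used edgeR 4.0.16 under R 4.3.3. Genes passing filterByExpr (minimum count 10, minimum total 15) numbered 2356 and held 97.7% of M0 counts. Libraries were scaled by TMM, and a mean per group was fitted to all 12 libraries, which shared the estimate of the spread (common biological coefficient of variation 0.275). The contrast of ISRIB and vehicle in M0 was tested with the quasi-likelihood test, with Benjamini-Hochberg adjustment over all 2356 genes and a threshold of 0.05. The 95% interval used the standard error implied by the test statistic and the t distribution. The script was tested on simulated data.

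Named genes were, among well-counted genes, the 6 with the lowest p in each direction and the 3 with the widest interval; the 8 with the most counts; the 3 with the lowest p in all; tested members of the integrated stress response, eIF2 and tRNA synthetase lists, and members of other lists at an unadjusted p under 0.05; up to 10 genes called under an alternative; and Gbp7, Basp1 and Mrpl48. Other members named for their role were picked with their values in view. The members, lists and rules were chosen with earlier results of these data known. Overlaps were read from the GENCODE annotation of the same build (23986 symbols matched 1 gene), and promoters are from RefSeq. Alternatives were DESeq2 size factors, the DESeq2 1.42.0 Wald test, limma 3.58.1 with voom and on the deposited log2 values, other filters, only the 6 M0 libraries, the replicate number as a block, a minimum absolute log2 fold change of 1, each library left out, and, chosen after seeing the data, counts halved and rounded up.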

Additional observations from a re-analysis of the deposited data

How the results depend on the processing

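The count of 0 genes past the threshold was the same with DESeq2 size factors, limma on the deposited log2 values, a minimum mean of 50 counts, only the 6 M0 libraries, a least absolute log2 fold change of 1 and counts halved and rounded up. It was 3 with DESeq2's Wald test, 1 with limma-voom and 10 with no filter on low counts, and 0 to 6 with 1 library left out (6 without ISRIB replicate 1, 2 without ISRIB replicate 2). Genes at an unadjusted p under 0.05 numbered 375 with no filter, 55 with the minimum mean of 50 counts, where fewer genes were tested, and 133 to 178 with 1 library left out. The median absolute log2 fold change was 0.143 to 0.156 with 1 library left out. Interaction calls numbered 9 with no filter and 0 to 4 with 1 library left out.

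When the replicate number entered as a block, 0 genes passed in all 12 libraries and 141 had an unadjusted p under 0.05, 3 passed in the interaction, and with only the 6 M0 libraries 20 passed, among them Gm15441, Prune2, Ctsa (adjusted p 0.000404) and Cd163. Deviations of same-numbered libraries had correlations over the 2356 genes of 0.1128, 0.1004 and 0.0136. The rule used asked all 3 to exceed a set cut, which 0.0136 did not, so the main fit did not pair the samples by number. Pairing is not excluded by this, and the deposited columns of same-numbered libraries carry consecutive names. Over the 861 well-counted genes they were 0.306, 0.335 and 0.0105. As a hint from the data, each of the 3 vehicle libraries correlated best with its own number.

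Estimates near 0 changed sign. 3110062M04Rik was 0.0146 with the minimum mean of 50 counts and 0.00447 with halved counts, and Slc3a2 was 0.17 with limma-voom, 0.0879 with limma on log2 values and 0.10 with the replicate block in the 6 M0 libraries. The cause was not tested. With 1 library left out, ranges were -0.0372 to 0.0604 for 3110062M04Rik, -0.65 to 1.05 for Slc3a2, -0.11 to 0.73 for Atf3, -0.28 to 0.13 for Atf5, -0.77 to 0.0172 for Cebpb, -0.25 to 0.28 for Cebpg, -0.15 to 0.13 for Ddit3, -0.22 to 0.87 for D630041G03Rik, -0.0676 to 0.0284 for Fdft1, -0.0581 to 0.00403 for Krr1, -1.67 to 0.15 for Ppp1r15b, -0.0349 to 0.13 for Snx22, -0.12 to 0.0282 for Tmem132a and -0.26 to 0.44 for Yars. Intervals were wide below a mean of 50 counts, where nearly all stress response genes lay. Whether depth or the way reads were counted set those counts was not tested.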

Other observations

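A few further genes are given as values, chosen after they were seen. Marcks, a membrane-bound substrate of protein kinase C and a functional relative of Basp1, held 7, 26 and 13 counts in vehicle M0 and 32, 54 and 51 under ISRIB, with a log2 fold change of 1.59, a 95% interval of 0.71 to 2.46 and, by quasi-likelihood in edgeR, an adjusted p of 0.294. In M1-like cells its log2 fold change was -0.40, and the adjusted interaction p was 0.302. Zbtb11, a zinc finger transcription factor, held 29, 72 and 80 counts in vehicle and 73, 213 and 91 under ISRIB, with overlap of the groups and an interval of 0.33 to 1.76. A230020J21Rik, antisense to the haem exporter gene Flvcr1, held 366, 588 and 368 counts against 487, 766 and 661, with an interval of 0.16 to 0.95 and an edgeR adjusted p of 0.504. Flvcr1 held 2 counts in 1 M0 library and 0 in the others.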
